A study of Mus musculus with 36 samples.

Results

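The 32 genes described here encode the enzymes that turn glucose into pyruvate and lactate, the enzymes that set the level of the activator fructose 2,6-bisphosphate, and the membrane carriers of glucose, lactate and pyruvate. They were taken by gene symbol from a table of 56980 genes, and all 32 were among the 25601 genes with enough counts to be tested. The counts came from polyA-selected RNA of 36 samples of brain tissue, from mice of 37 to 45 days labelled Ndufs4 knockout (KO) or wild type (WT). All mice were gavaged for 3 days with vehicle or with CP2, a small molecule that inhibits complex I of the respiratory chain. Each sample title also carries the letter F or M. Of the 8 combinations of genotype, treatment and letter, most held 5 samples, and the vehicle groups of KO and WT with the letter M held 3 samples each. The labels do not describe the knockout allele. The tissue label is brain, while the series text names hippocampus with cortex, and how much of a sample came from either region is not given. Nothing in the labels states that each sample is a separate animal, and p-values measure the spread between samples.

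Glycolysis splits glucose into pyruvate in the cytosol and needs NAD+, which lactate dehydrogenase regenerates when pyruvate becomes lactate. Complex I, of which NDUFS4 is a subunit, oxidises NADH in mitochondria, so cells with a weak complex I are known to lean on glycolysis and lactate. In brain, glucose enters mainly through GLUT1 in vessels and glia and GLUT3 in neurons, and lactate passes between astrocytes and neurons through monocarboxylate transporters.

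Libraries held from 4.61e+07 to 8.86e+07 counts in genes. Ndufs4, the targeted gene, lay between 27.4 and 39.1 counts-per-million (CPM) in the KO samples and between 38.9 and 62.8 CPM in the WT samples, so that the ranges just touched. The share of reads that the counting placed outside annotated genes, called the outside share here, ranged from 5.09% to 13.2%. It was 6.19% to 11.7% in KO vehicle F against 5.09% to 7.04% in WT vehicle F, and 5.18% to 9.06% in KO CP2 M against 11.3% to 13.03% in KO vehicle M and 9.05% to 13.2% in WT CP2 M. Over all WT samples it was 5.09% to 7.18% in F and 9.05% to 13.2% in M. There the letter and the share cannot be told apart. The gene with the largest share of all counts took 0.856% to 1.78% in WT F and 1.60% to 6.01% in WT M. Cerebellar marker genes summed to 529 CPM in KO CP2 F sample L201 and 140 CPM in L233, and to between 24.2 and 83.4 CPM in every other sample. The KO CP2 M sample L291 held 47.3 CPM of Xist, where the other M samples held at most 0.833 CPM. In KO CP2 M sample L266 the gene with the largest share of all counts took 1.01%, against 4.79% to 5.87% in the rest of its group. Calls that changed when L201 and L233, or L266 and L291, were left out are given with each gene. The 32 genes together took between 0.955% and 1.19% of a sample's counts.

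Promoter sequence is shown for 4 genes that moved in KO, because several glycolytic genes are known targets of hypoxia-inducible factor, which binds a core of the letters ACGTG or GCGTG. The 250 bases before the annotated start are printed 5′ to 3′ on the gene's own strand, from RefSeq on GRCm38.p6, with each match on either strand in capitals. They are Ldha at chr7:46845554-46845803 (plus strand), Pgk1 at chrX:106186850-106187099 (plus), Slc16a1 at chr3:104638414-104638663 (plus) and Pgam2 at chr11:5803797-5804046 (minus). On average over F and M, Ldha was called lower in KO with vehicle and with CP2. Pgk1 was called lower with vehicle only, just inside the threshold. Pgam2 was called higher in KO with vehicle and with CP2, and Slc16a1 with CP2 only.
Ldha: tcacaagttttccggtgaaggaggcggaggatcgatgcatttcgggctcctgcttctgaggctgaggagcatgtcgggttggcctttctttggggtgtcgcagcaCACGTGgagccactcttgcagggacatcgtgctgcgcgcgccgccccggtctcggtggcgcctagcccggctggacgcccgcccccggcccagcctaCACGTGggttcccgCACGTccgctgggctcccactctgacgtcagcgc
Pgk1: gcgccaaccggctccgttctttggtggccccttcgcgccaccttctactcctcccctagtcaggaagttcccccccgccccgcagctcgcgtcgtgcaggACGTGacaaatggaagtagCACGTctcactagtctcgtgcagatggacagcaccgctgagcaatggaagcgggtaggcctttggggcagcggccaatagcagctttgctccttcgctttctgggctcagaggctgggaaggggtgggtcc
Slc16a1: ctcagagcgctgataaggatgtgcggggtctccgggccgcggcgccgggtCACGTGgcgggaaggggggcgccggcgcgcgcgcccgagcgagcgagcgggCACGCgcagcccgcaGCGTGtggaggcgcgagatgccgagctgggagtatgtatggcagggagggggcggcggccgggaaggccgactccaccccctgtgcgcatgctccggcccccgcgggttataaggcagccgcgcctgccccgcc
Pgam2: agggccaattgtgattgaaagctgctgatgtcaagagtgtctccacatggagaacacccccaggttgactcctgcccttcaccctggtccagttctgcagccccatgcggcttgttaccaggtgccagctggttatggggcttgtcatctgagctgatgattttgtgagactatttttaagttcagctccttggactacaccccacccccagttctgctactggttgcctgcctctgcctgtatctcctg
The Ldha stretch held 5 matches, that of Pgk1 held 2, that of Slc16a1 held 4 and that of Pgam2 held 0. A second Ldha promoter in the table, at chr7:46846832-46847081, held 1 match and no E box and is not printed. The RefSeq start behind the printed Ldha stretch lay 35 bases from the nearest transcript start of that gene in GENCODE M21, that of Slc16a1 4 bases and that of Pgam2 63 bases, while the starts of Pgk1 and of the second Ldha promoter coincided with one. A palindromic CACGTG, the E box, is counted once on each strand. Of the 32 genes, 28 had a promoter in the RefSeq table, with 46 promoters in all, and 24 of the 28 had a match in at least 1 of them. By promoter, 34 of 46 (73.9%) held a match, against 38.6% of all 32851 promoters in the table over the same length. Some of the 46 overlap within a gene and hold the same matches, as at Eno1 and Aldoa. The share by gene over all promoters is not given here, and the difference was not tested. The letters are a description of these windows and show no binding.

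Levels per kilobase of exon, taken from the GENCODE M21 annotation, spanned a wide range among the 32 genes. Length here counts every base in any annotated exon of a gene, so it can exceed the length of a single transcript. Aldoa, an aldolase found in most tissues, stood highest at 502 CPM per kb on average over the 36 samples. Gapdh followed at 397 CPM per kb, the astrocytic aldolase Aldoc at 291.1, Ldhb, the dehydrogenase subunit that favours lactate use, at 256, and Bsg, the chaperone of lactate carriers, at 231. The 4 lowest were Hk2 at 0.958, Slc2a4 at 0.836, Slc16a3 at 0.776 and Pfkfb1 at 0.159 CPM per kb. The main brain isoform stood far above its tissue-restricted relative in several steps. Hk1 reached 39.5 CPM per kb beside 0.958 for Hk2, and Pgam1 reached 87.7 beside 5.91 for the muscle isoform Pgam2. Among lactate dehydrogenases Ldha stood at 68.0 CPM per kb and Ldhd, which acts on D-lactate, at 2.67. In M21 the exons of Slc2a4, Pgam2, Ldha and Ldhb share no base with another gene, while 42.2% of Ldhd's exon bases lie under Znrf1 on the opposite strand and 19.5% of Pfkfb2's under Yod1 and Gm29427. Whether reads were counted by strand is not given in the sources used here, so values of Ldhd and Pfkfb2 are uncertain to that extent.

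**Figure D1:**
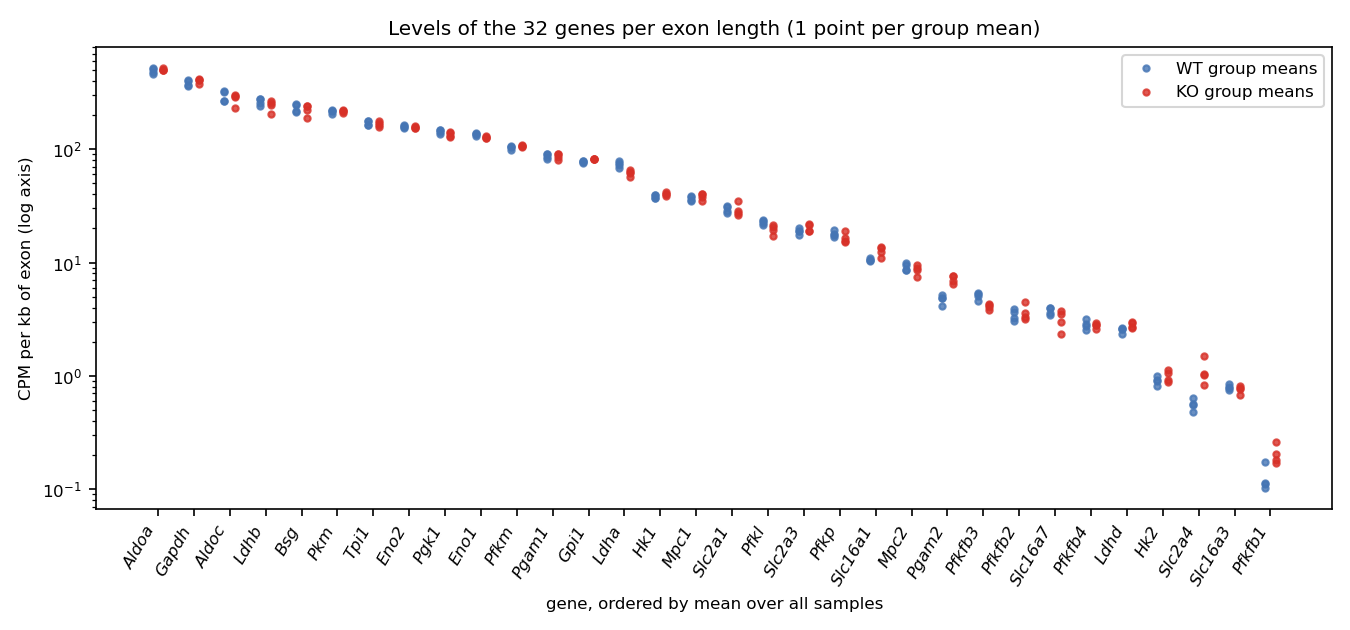
Level of each of the 32 genes in CPM per kb of exon on a log axis, ordered by the mean over all samples, with 1 point per group mean, WT in blue and KO in red. Levels run from 502 for Aldoa down to 0.159 for Pfkfb1, and the KO points of Slc2a4 and Pgam2 lie above their WT points.

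With vehicle, averaged over F and M, KO brains had more RNA for the glucose transporters Slc2a3 and Slc2a4 and the muscle-type mutase Pgam2. They had less for the lactate dehydrogenase subunits Ldha and Ldhb and the liver-type phosphofructokinase Pfkl. On average over F and M, 8 of the 32 genes were called with edgeR's quasi-likelihood test at an adjusted p under 0.05, where 6.67% of all tested genes were called. The 4 that rose were Slc2a3, Slc2a4, Pfkfb2 and Pgam2 (2.87% of all genes rose), and the 4 that fell were Pfkl, Pgk1, Ldha and Ldhb (3.8% fell). With the outside share as a term of the fit, only the call of Slc2a3 stayed. The median log2 fold change was -0.04 over the 32 genes and 0.02 over all tested genes. A log2 fold change of 1 stands for a 2-fold difference. In bulk tissue, fewer cells of a type and less RNA per cell cannot be told apart.

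Within F, 4 of the 32 genes were called in vehicle (4.96% of all genes; 2.02% rose and 2.94% fell): Slc2a4 rose, and Pfkl, Ldha and Slc16a7 fell. Every KO sample lay outside the WT range for 4 genes in F, with Slc2a4 above and Pfkl, Ldha and Ldhb below, where 4.7% of all genes had no overlap. Within M, edgeR called 0 of the 32 (0.516% of all genes), and DESeq2 called Slc2a3 and Ldhb (2.22% of all genes). With edgeR, 7 of the 32 had an unadjusted p under 0.05. In the fit without the gene with the largest share of counts, 8 of the 32 did, beside 3152 of all tested genes. With 3 samples in each M group, 8 of the 32 had no overlap, where 20.9% of all genes had none. An F effect that differed from the M effect was called for 0 of the 32 with edgeR (0.102% of all genes), with 5 at an unadjusted p under 0.05. How many of all genes passed that unadjusted threshold for this difference is not given here.

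With CP2, KO brains again had more Slc2a4 and Pgam2 RNA than WT brains, and also more of the lactate carrier Slc16a1 and less of the platelet-type phosphofructokinase Pfkp and the regulator Pfkfb3. On average 6 of the 32 genes were called (11.6% of all genes): Slc2a4, Pgam2 and Slc16a1 rose (5.54% of all genes rose), and Pfkp, Pfkfb3 and Ldha fell (6.07% fell). The share of the 32 that was called, 18.8%, stands beside a background of 11.6%, and the median log2 fold change was 0.03 over the 32 genes and 0.01 over all genes. Within M, the same genes apart from Ldha were called, 5 of 32 (9.99% of all genes; 4.75% rose and 5.24% fell). Within F, edgeR called 0 of 32 (2% of all genes), and DESeq2 called Pfkfb3 and Pgam2 (3.54% of all genes). With edgeR, 7 of the 32 had an unadjusted p under 0.05. In the fit without the gene with the largest share of counts, 7 of the 32 did, beside 4054 of all tested genes. Groups did not overlap for 6 of the 32 in M (11.1% of all genes) and for 1, Slc16a7, in F (3.02%). The F and M effects differed for 0 of the 32 with edgeR (0.82% of all genes), with 5 at an unadjusted p under 0.05. For this difference the count over all genes at the unadjusted threshold is not given here.

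CP2 against vehicle within KO gave 2 calls on average, a fall of Pfkfb2 and a rise of Bsg (3.91% of all genes; 2.08% rose and 1.84% fell). Within M it gave 5 calls: Aldoc, Ldhb and Bsg rose, and Pfkp and Pfkfb2 fell (5.1% of all genes; 2.36% rose and 2.74% fell). Without overlap in M stood 8 of the 32, where 15.3% of all genes had none. Within F, edgeR and DESeq2 called 0 of the 32 (0.0859% of all genes with edgeR), and 0 stood without overlap (1.04% of all genes). With edgeR, 6 of the 32 had an unadjusted p under 0.05. In the fit without the gene with the largest share of counts, 6 of the 32 did, beside 2849 of all tested genes. Pfkp was the single member whose CP2 effect in KO was called as different between F and M (0.691% of all genes). The median log2 fold change on average was 0.04 over the 32 genes and 0.00 over all genes. These comparisons share the KO samples with the comparisons of KO with WT.

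CP2 against vehicle within WT gave 0 calls among the 32 genes, and 0% of all genes, with edgeR on average, in F and in M. DESeq2 also called 0 of the 32 in each, and 0 of the 32 had an unadjusted p under 0.05. In F 0 of the 32 stood without overlap (0.605% of all genes), and in M 3 did, Slc2a3, Pfkp and Pfkfb4, all higher with CP2 (4.54% of all genes). The interaction of genotype and CP2 gave 0 calls with edgeR (0.715% of all genes), and calls for Slc2a3 and Pfkfb2 with DESeq2 (2.27% of all genes). With edgeR, 9 of the 32 had an unadjusted p under 0.05. In the fit without the gene with the largest share of counts, 9 of the 32 did, beside 3782 of all tested genes. The F and M effects of CP2 in WT differed for 0 of the 32 with edgeR (0% of all genes), with 1 at an unadjusted p under 0.05. For that difference the unadjusted count over all genes is not given here.

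**Figure D2:**
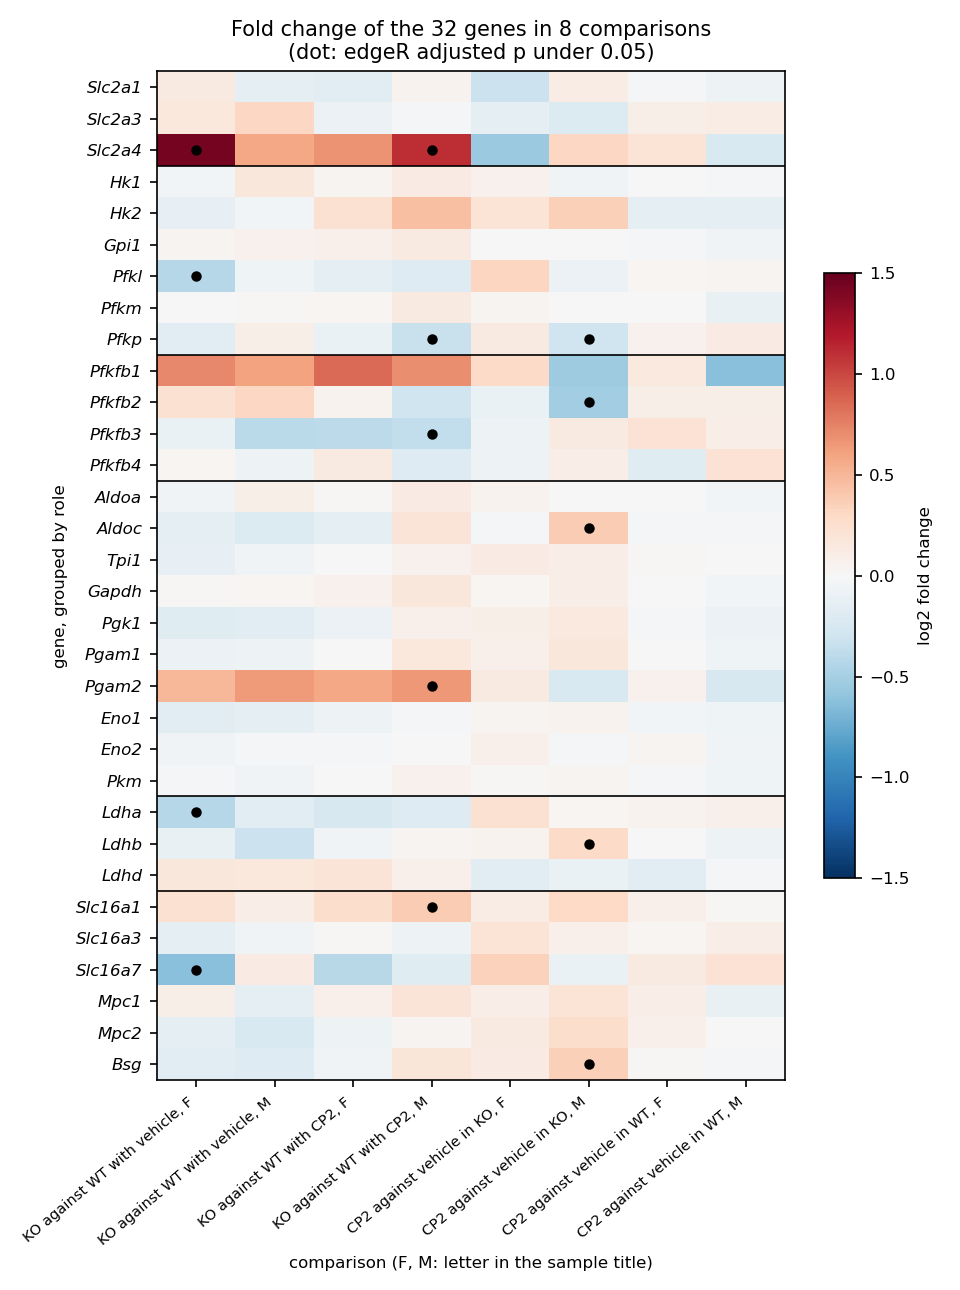
Log2 fold change of each of the 32 genes (rows, grouped by role) in 8 comparisons (columns, F and M apart), red for higher and blue for lower, with a dot where edgeR's adjusted p was under 0.05. The darkest red cells are Slc2a4 in KO against WT, 1.43 in F with vehicle and 1.11 in M with CP2. The 2 columns of CP2 in WT hold no dot. Neither do the columns of KO against WT with vehicle in M and with CP2 in F, nor that of CP2 in KO F.

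Among the glucose carriers, Slc2a4 changed in KO with vehicle and with CP2, Slc2a3 with vehicle, and Slc2a1 in neither. Slc2a4 (ENSMUSG00000018566, chromosome 11) encodes GLUT4, which insulin moves to the cell surface in muscle and fat and which some neurons also make. The KO vehicle F samples stood at 4.08, 4.39, 4.56, 5.56 and 7.17 CPM and the WT vehicle F samples at 0.996, 1.81, 1.98, 2.19 and 2.56 CPM, so that every KO sample lay above every WT sample. In vehicle M the KO samples held 2.37, 2.39 and 3.94 CPM and the WT samples 1.81, 1.99 and 2.03 CPM, again without overlap but with a smaller gap. The log2 fold change was 1.43 in F (SE 0.25, edgeR adjusted p = 0.000615), 0.58 in M (SE 0.32, edgeR adjusted p = 0.477) and 1.01 on average (SE 0.20, edgeR adjusted p = 0.00178). The F effect minus the M effect was 0.85 (SE 0.40, edgeR adjusted p = 0.567). With the outside share as a term of the fit, the average was 0.81 and missed the threshold (edgeR adjusted p = 0.0551), and the F call stayed.

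With CP2, Slc2a4 kept its order in M, where the KO samples had 2.78, 2.87, 3.45, 3.77 and 5.11 CPM and the WT samples 1.24, 1.53, 1.73, 1.82 and 1.96 CPM. In F the KO samples had 2.52, 2.61, 3.05, 3.14 and 6.25 CPM and the WT samples 1.499, 1.93, 2.08, 2.33 and 3.14 CPM, which overlapped. The highest of these KO samples was L201, the one with the most cerebellar marker RNA. The log2 fold change with CP2 was 1.11 in M (SE 0.25, edgeR adjusted p = 0.00274), 0.68 in F (SE 0.25, edgeR adjusted p = 0.144) and 0.89 on average (SE 0.17, edgeR adjusted p = 0.000531). Without L201 and L233 the average was 0.72 (SE 0.17, edgeR adjusted p = 0.00385). CP2 against vehicle did not pass for Slc2a4 in KO (average -0.12, SE 0.185, edgeR adjusted p = 0.791).

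Slc2a4 and Pgam2 are both known as muscle genes, so 5 skeletal muscle markers were read beside them. They summed to between 6.20 and 11.6 CPM in a sample, most of it Acta1 at 5.07 to 10.5 CPM. Ckm, the muscle creatine kinase, was at most 0.398 CPM and at 0 in 7 samples. Of the 4 muscle markers with enough counts to test, 0 were called with edgeR in KO against WT with vehicle or with CP2, and 0 had an unadjusted p under 0.05 on average. Within vehicle F the estimate for Myh4, a muscle myosin, was 1.42 (SE 0.603, edgeR adjusted p = 0.165).

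Slc2a3 encodes GLUT3, the neuronal glucose carrier. In vehicle M the KO samples had 155, 158 and 160 CPM and the WT samples had 127 CPM each, so the groups lay apart. In vehicle F the KO samples had 127, 150, 157, 166 and 170 CPM and the WT samples 116, 133, 142, 147 and 154 CPM, which overlapped. The average log2 fold change was 0.23 (SE 0.061, edgeR adjusted p = 0.0164), and it was called in all 16 fits that left out 1 sample. With CP2 the difference was -0.05 (SE 0.053, edgeR adjusted p = 0.637). The interaction, -0.28 (SE 0.081, edgeR adjusted p = 0.083), did not pass, and DESeq2 called it.

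Slc2a1 encodes GLUT1, the carrier of the blood-brain barrier, and was not called in any comparison. The KO vehicle F samples were the most scattered, at 85.6, 97.9, 111, 137 and 175 CPM, against 101, 102, 103, 116 and 129 CPM in WT vehicle F. The other 6 groups lay between 77.0 and 119 CPM. In vehicle the average log2 fold change of KO against WT was 0.00 (SE 0.10, edgeR adjusted p = 0.992). Endothelial markers summed to between 214 and 347 CPM in KO vehicle F and between 219 and 280 CPM in WT vehicle F, with 7 of 8 markers estimated higher in KO on average and 0 called.

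**Figure D3:**
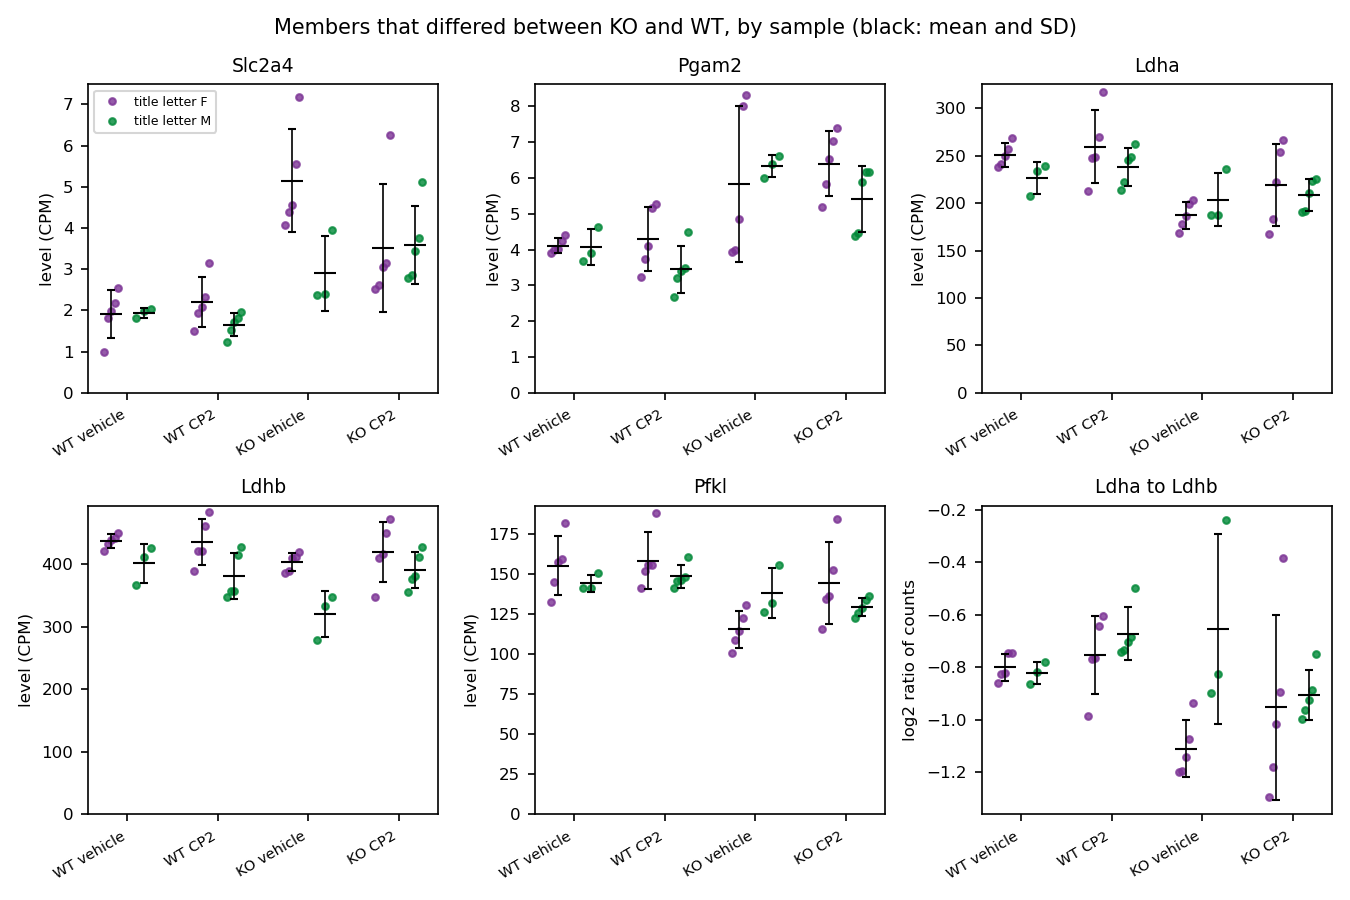
Level in CPM of Slc2a4, Pgam2, Ldha, Ldhb and Pfkl, and the log2 ratio of Ldha to Ldhb counts, in each sample of the 8 groups, with F in purple, M in green and the black bars at mean and SD. The 5 KO vehicle F samples of Slc2a4 lie at 4.08 CPM or more, above all WT samples, and the KO vehicle F ratios lie below all WT vehicle F ratios.

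The first enzymes of the pathway trap glucose and commit it. Hk1, the main brain hexokinase, was not called in any comparison of all samples and stood between 295.9 and 380 CPM over all samples. Its KO vehicle M samples, at 349, 358 and 373 CPM, lay above the WT vehicle M samples at 313, 321 and 326 CPM (log2 fold change 0.17, SE 0.075, edgeR adjusted p = 0.334). The average over F and M with CP2 was called once L201 and L233 were left out (0.12, edgeR adjusted p = 0.0369). Hk2, the inducible hexokinase, was low. In M with CP2 its KO samples had 5.49, 6.76, 6.94, 6.95 and 7.33 CPM and its WT samples 3.95, 4.78, 4.997, 5.31 and 5.36 CPM, without overlap. That difference did not pass (0.46, SE 0.18, edgeR adjusted p = 0.106), and neither did the average over F and M (0.34, SE 0.13, edgeR adjusted p = 0.0771), which DESeq2 called.

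Phosphofructokinase, the committing step, is a tetramer of liver, muscle and platelet type subunits. Pfkl, the liver type, was lower in KO vehicle F, at 101, 109, 114, 122 and 131 CPM, than in WT vehicle F, at 133, 145, 157, 159 and 182 CPM, with no overlap. In M the KO vehicle samples had 126, 132 and 155 CPM and the WT vehicle samples 141, 141 and 150 CPM, and these overlapped. Pfkl fell by 0.43 in F (SE 0.090, edgeR adjusted p = 0.00402) and by 0.24 on average (SE 0.073, edgeR adjusted p = 0.0349) on the log2 scale. The F call was kept in 10 of 10 fits that left out a sample. The average was kept in 6 of 16, those without KO F sample L246, L279 or L281, KO M sample L310, or WT F sample L252 or L278, with an adjusted p of up to 0.107 in the others. With the outside share as a term, both calls were lost with most of the fold kept, at -0.37 in F (edgeR adjusted p = 0.0914) and -0.20 on average (0.273). Pfkl without L201 and L233 was called higher with CP2 than with vehicle in KO F (0.45, edgeR adjusted p = 0.0413).

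Pfkp, the platelet type, was lower in KO than WT when both received CP2. In M the KO samples had 197, 198, 213, 214 and 217 CPM and the WT samples 257.3, 258, 258.8, 262.9 and 274 CPM, which left a gap between the groups. Among F samples, KO had 206, 209, 209, 242 and 242 CPM and the WT samples 217, 221, 234.3, 241 and 269 CPM, which overlapped. Pfkp fell by 0.34 in M (SE 0.061, edgeR adjusted p = 0.000267) and by 0.22 on average (SE 0.043, edgeR adjusted p = 0.00066) on the log2 scale, and both calls were kept in every fit that left out a sample.

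Against vehicle, the estimated effect of CP2 on Pfkp in KO had opposite signs in F and M. The KO vehicle M samples, at 240, 249 and 278.3 CPM, all lay above the KO CP2 M samples, and Pfkp fell by 0.30 (SE 0.069, edgeR adjusted p = 0.00755). The KO vehicle F samples, at 190, 198, 198, 211 and 215 CPM, overlapped the KO CP2 F samples, with an estimate of 0.13 (SE 0.061, edgeR adjusted p = 0.418). The F effect minus the M effect was 0.43 (SE 0.092, edgeR adjusted p = 0.0273). It missed the threshold without KO CP2 M sample L266 (adjusted p = 0.0532) or L291 (0.0591), KO vehicle F sample L246 (0.0535), or KO vehicle M sample L310 (0.0756) or L322 (0.0813), with estimates from 0.37 to 0.45. The call in M was lost without L310 (adjusted p = 0.0752). Without both L266 and L291 the difference between the letters was 0.38 (edgeR adjusted p = 0.141) and the M value -0.25 (edgeR adjusted p = 0.0851). The M call was also lost with the outside share as a term, at -0.37 (edgeR adjusted p = 0.107).

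The other enzymes of this stretch, Gpi1 and Pfkm, were not called in any comparison of all samples. Gpi1, the isomerase, lay between 458 and 583 CPM and its log2 fold changes in F, in M and on average ran from -0.06 to 0.13. Gpi1 was called higher without L201 and L233 in KO against WT with CP2 on average (0.13, edgeR adjusted p = 0.0379). Pfkm, the muscle type subunit and the most abundant of the 3 per length at 105 CPM per kb, lay between 315 and 389 CPM, with log2 fold changes from -0.11 to 0.13.

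The PFKFB enzymes make and break fructose 2,6-bisphosphate, which switches phosphofructokinase on. Pfkfb2, the heart type, was higher in KO vehicle than in WT vehicle. Among M samples, KO had 32.1, 32.9 and 33.5 CPM and the WT samples 22.9, 25.5 and 30.7 CPM, without overlap. For F, the KO samples had 22.8, 23.7, 23.9, 28.9 and 29.7 CPM and the WT samples 20.4, 21.6, 21.8, 22.9 and 23.2 CPM, which overlapped. The average log2 fold change was 0.27 (SE 0.085, edgeR adjusted p = 0.0438). It was called in 6 of 16 fits that left out a sample, those without KO F sample L246, L282 or L283, WT F sample L277 or L295, or WT M sample L303, with an adjusted p of up to 0.148 in the others. It was also lost without a filter on low counts (adjusted p = 0.0625), with the title number as a covariate (0.0525), and with the outside share as a term, where it was 0.10 (0.666).

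With CP2 the Pfkfb2 level of KO M was 22.0, 22.3, 22.5, 22.9 and 24.2 CPM, below all 3 KO vehicle M samples. In F the KO CP2 samples had 18.8, 22.1, 22.2, 23.9 and 33.6 CPM, and the highest was again L201. Pfkfb2 fell with CP2 in KO by 0.53 in M (SE 0.12, edgeR adjusted p = 0.00595) and by 0.31 on average (SE 0.079, edgeR adjusted p = 0.0178) on the log2 scale. Without KO vehicle M sample L322 the M call was lost (adjusted p = 0.0589), and so was the average. Without L266 and L291 the average was -0.31 (SE 0.087, edgeR adjusted p = 0.0534), and without L201 and L233 it was -0.39 (SE 0.072, edgeR adjusted p = 0.000809). The average also missed the threshold with only the compared groups in the fit (adjusted p = 0.0824) and with the title number (0.188). With the outside share as a term both calls were lost, at -0.20 in M (edgeR adjusted p = 0.681) and -0.09 on average (0.848). Without L201 and L233, Pfkfb2 was called lower in KO than WT with CP2 on average (-0.20, edgeR adjusted p = 0.0428). The interaction was -0.40 (SE 0.11, edgeR adjusted p = 0.0768), and it was called by DESeq2 and without L201 and L233.

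Pfkfb3, the isoform with the strongest kinase activity, was lower in KO than WT with CP2. For M, the KO samples had 29.9, 31.0, 31.7, 32.1 and 34.2 CPM and the WT samples 36.7, 38.3, 39.8, 42.3 and 48.3 CPM, without overlap. In F the KO samples had 25.6, 29.6, 29.8, 33.1 and 35.1 CPM and the WT samples 34.5, 36.1, 37.8, 45.7 and 46.6 CPM, where 1 KO sample reached into the WT range. Pfkfb3 fell by 0.38 on average (SE 0.079, edgeR adjusted p = 0.00103), by 0.37 in M (SE 0.11, edgeR adjusted p = 0.0274), and stood at -0.39 in F (SE 0.11, edgeR adjusted p = 0.0547). The average was called in 20 of 20 fits that left out a sample, and the M call in 5 of 10, lost without KO CP2 M sample L266, L298 or L299 or WT CP2 M sample L262 or L263 (adjusted p up to 0.106). Without both L266 and L291 the M value was -0.36 (edgeR adjusted p = 0.111), and with the title number it was -0.28 (0.122). In vehicle the average was -0.25 (SE 0.091, edgeR adjusted p = 0.0823).

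Pfkfb4 stood between 9.69 and 16.9 CPM and was not called. Pfkfb1, the liver isoform, stood between 0.190 and 1.48 CPM, and its estimates for KO against WT, 0.66 with vehicle and 0.78 with CP2 on average, did not pass with edgeR (adjusted p = 0.073 with CP2), while DESeq2 called that with CP2.

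**Figure D4:**
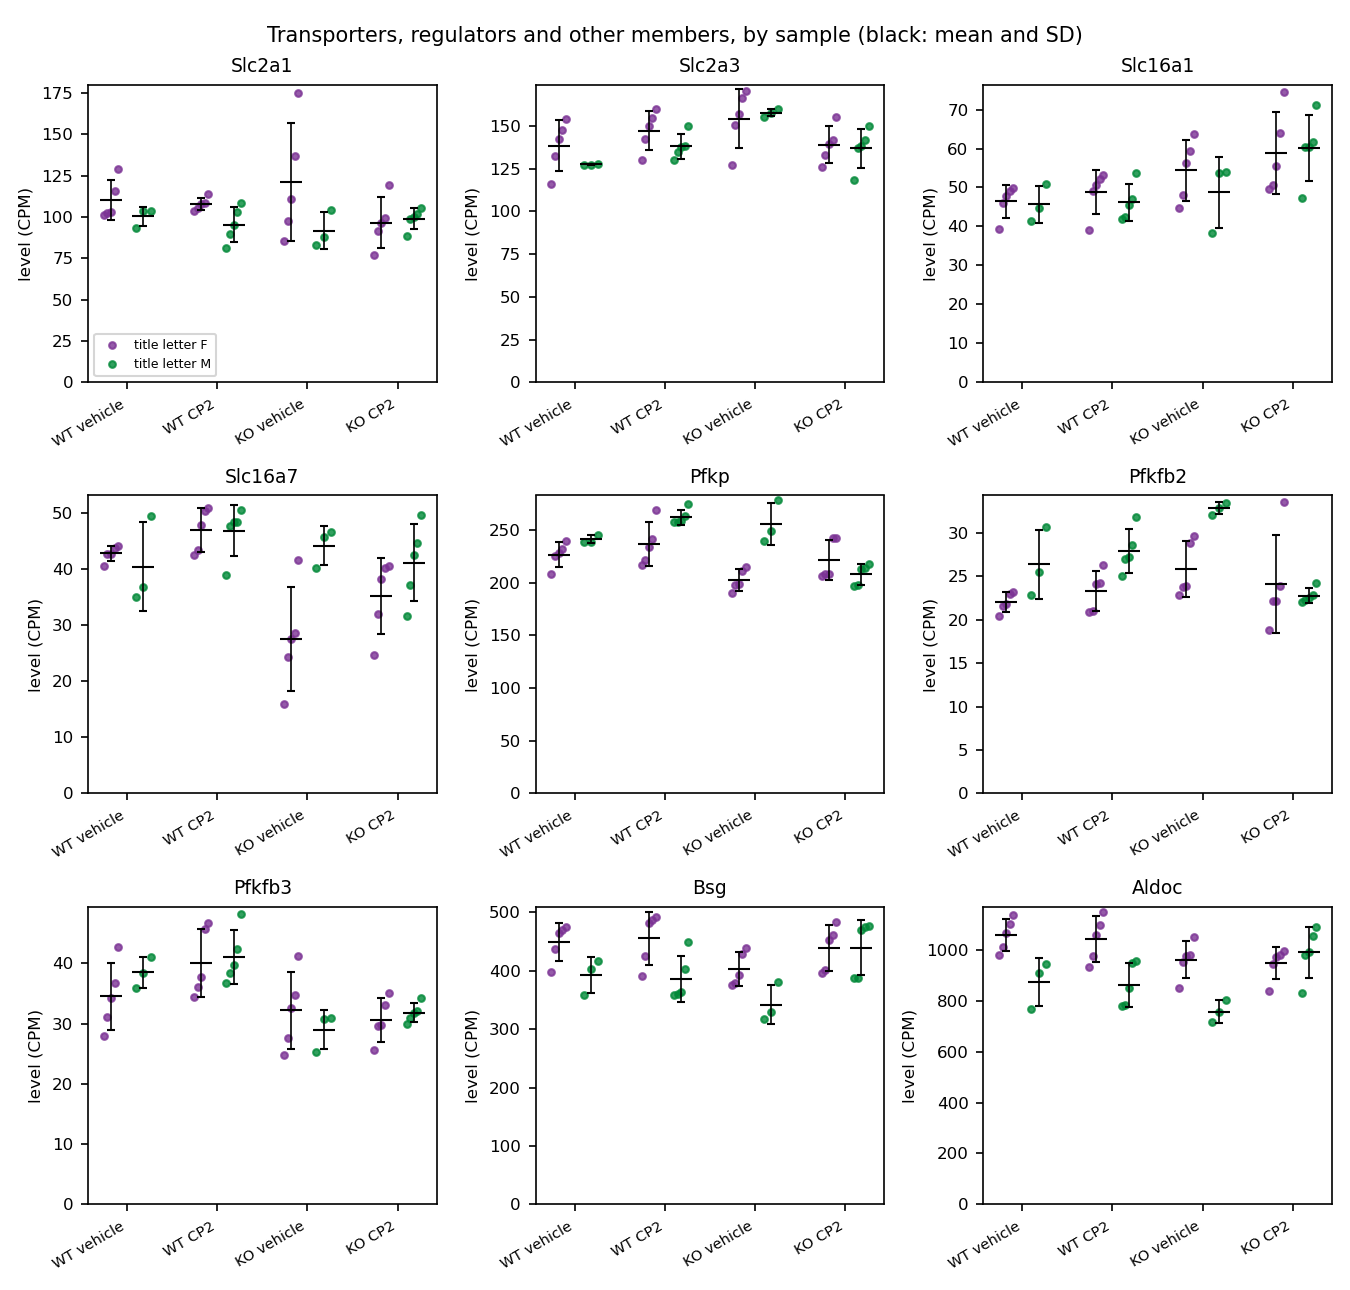
Level in CPM of 9 further genes in each sample of the 8 groups, with F in purple, M in green and black bars at mean and SD. Pfkfb2 falls from 32.1 to 33.5 CPM in KO vehicle M to 22.0 to 24.2 CPM in KO CP2 M, and Pfkp in KO CP2 M lies below all WT CP2 M samples.

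Below fructose bisphosphate, Pgam2 rose in KO against WT with vehicle and with CP2, Pgk1 fell in KO with vehicle, and Aldoc rose with CP2 in KO M. Pgam2 (ENSMUSG00000020475, chromosome 11), the muscle phosphoglycerate mutase, was higher in KO in each letter and treatment by estimate. In vehicle M the KO samples had 6.01, 6.402 and 6.62 CPM and the WT samples 3.68, 3.89 and 4.64 CPM, without overlap. In vehicle F the KO samples split into 3.94, 3.99 and 4.86 CPM and 8.02 and 8.33 CPM, beside WT samples at 3.89, 3.98, 4.02, 4.25 and 4.40 CPM. The average log2 fold change in vehicle was 0.57 (SE 0.15, edgeR adjusted p = 0.0155), and it was lost without WT vehicle M sample L285 (adjusted p = 0.0558). With the outside share as a term it was 0.56 and missed the threshold (edgeR adjusted p = 0.115).

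With CP2 the KO F samples of Pgam2 had 5.19, 5.82, 6.53, 7.04 and 7.41 CPM and the WT F samples 3.24, 3.73, 4.10, 5.16 and 5.26 CPM. The KO M samples had 4.39, 4.45, 5.89, 6.17 and 6.17 CPM and the WT M samples 2.67, 3.204, 3.41, 3.48 and 4.48 CPM. In each letter the highest WT sample passed the lowest KO sample. The log2 fold change was 0.61 on average (SE 0.13, edgeR adjusted p = 0.00116) and 0.65 in M (SE 0.18, edgeR adjusted p = 0.0168). The average was called in 20 of 20 fits that left out a sample, and the M call in 8 of 10, lost without KO CP2 M sample L292 or WT CP2 M sample L262 (adjusted p up to 0.0747). The M call was also lost with a hippocampal CA marker score (0.58, adjusted p = 0.0516) and with the outside share (0.67, adjusted p = 0.0919) as a term.

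Aldoc, the aldolase of astrocytes, rose under CP2 in KO M. The KO CP2 M samples had 832, 979, 992, 1054 and 1091 CPM and the KO vehicle M samples 715, 756 and 801 CPM, without overlap. In F the KO CP2 samples had 840, 946, 972, 981 and 996 CPM and the KO vehicle samples 848, 951, 974, 980 and 1050 CPM, which overlapped. Aldoc rose by 0.39 in M (SE 0.089, edgeR adjusted p = 0.0072), while the estimate in F was -0.02 (SE 0.076, edgeR adjusted p = 0.96). The difference between the letters was -0.41 (SE 0.12, edgeR adjusted p = 0.074). Without KO vehicle M sample L322 the M call was lost (adjusted p = 0.0843), as it was without L266 and L291 (0.0642) and with the outside share as a term (0.29, adjusted p = 0.408). The 8 astrocyte markers summed to between 5210 and 6243 CPM in KO CP2 M and between 3994 and 5849 CPM in KO vehicle M. S100b was the 1 of the 8 that was called higher (0.84, SE 0.14, edgeR adjusted p = 0.00064), and their part in the rise was not tested.

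Pgk1, the first ATP-making enzyme of glycolysis, was lower in KO vehicle. The KO F samples had 260, 281.9, 306, 308 and 312 CPM and the WT F samples 308, 310.8, 337, 351 and 360 CPM. The KO M samples had 266.9, 296.2 and 302 CPM and the WT M samples 282.8, 336 and 348 CPM. Groups overlapped in both letters. Pgk1 fell by 0.17 on average on the log2 scale (SE 0.055, edgeR adjusted p = 0.0499), just inside the threshold. It was called in 4 of 16 fits that left out a sample, those without KO F sample L246 or L279, WT F sample L278 or WT M sample L303, and with an adjusted p of up to 0.181 in the others. It was lost in 5 of 8 other fits: with RLE size factors (adjusted p = 0.0726), without a filter on low counts (0.0533), with only the compared groups (0.0848), with the title number (0.063), and with the outside share as a term, where it was -0.07 (0.635).

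The remaining enzymes of this stretch, Aldoa, Tpi1, Gapdh, Pgam1, Eno1, Eno2 and Pkm, were not called with edgeR in any comparison of all samples. Their log2 fold changes in F, in M and on average ran from -0.15, for Eno1 in KO vehicle, to 0.17, for Gapdh and Pgam1 in M. Gapdh, at 1381 to 1935 CPM, came closest in KO against WT with CP2 in M (0.17, SE 0.060, edgeR adjusted p = 0.0655), and DESeq2 called it there and on average. Without L201 and L233, Gapdh was called higher in KO against WT with CP2 on average (0.14, edgeR adjusted p = 0.0321) and Pgam1 higher with CP2 than with vehicle in KO on average (0.17, edgeR adjusted p = 0.0331). Pkm, the pyruvate kinase of brain, stood between 954 and 1181 CPM with log2 fold changes between -0.07 and 0.07, and the neuronal enolase Eno2 between 639 and 906 CPM with values between -0.05 and 0.07.

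Lactate dehydrogenase subunits fell in KO vehicle. Ldha (ENSMUSG00000063229, chromosome 7), whose promoter is printed above, encodes the subunit that favours lactate production. The KO vehicle F samples had 169, 178, 186, 199 and 203 CPM and the WT vehicle F samples 237, 241, 249, 257.1 and 269 CPM, with a clear gap. In M the KO samples had 187, 188 and 236 CPM and the WT samples 207, 233.7 and 239 CPM, and 1 KO sample lay within the WT range. Ldha fell by 0.42 in F (SE 0.099, edgeR adjusted p = 0.0107) and by 0.29 on average (SE 0.081, edgeR adjusted p = 0.0245) on the log2 scale. The F call was kept in 10 of 10 fits that left out a sample. The average was lost without KO M sample L319 or L322 or WT M sample L285 or L300 (adjusted p up to 0.0976). With the outside share as a term of the fit, Ldha was -0.21 in F (edgeR adjusted p = 0.356) and -0.12 on average (0.539), and both calls were lost.

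With CP2, Ldha in KO F was scattered, at 167, 184, 222, 254 and 266.4 CPM, with the 2 lowest in L201 and L233, beside WT F samples at 213, 247, 249, 270 and 317 CPM. Among M samples, KO had 191, 192, 211, 223 and 225 CPM and the WT samples 213, 222, 245.8, 249 and 262.1 CPM. Both letters overlapped. Ldha fell by 0.22 on average (SE 0.070, edgeR adjusted p = 0.0347). This call was kept in 10 of 20 fits that left out a sample. It was lost without KO F sample L201 or L233, KO M sample L291, L298 or L299, WT F sample L228 or L272, or WT M sample L259, L263 or L267 (adjusted p up to 0.0803). Without both L201 and L233 the value was -0.13 (SE 0.063, edgeR adjusted p = 0.181), and without both L266 and L291 it was -0.21 (SE 0.077, edgeR adjusted p = 0.0768). The call was also lost without a filter on low counts (adjusted p = 0.0639) and with only the compared groups in the fit (0.0728). In KO, Ldha was called higher with CP2 than with vehicle on average once L201 and L233 were left out (0.22, edgeR adjusted p = 0.0422).

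Ldhb (ENSMUSG00000030246, chromosome 6) was lower in KO vehicle as well. The KO F samples had 386, 389, 409, 411 and 419 CPM and the WT F samples 420, 431, 439, 441 and 450 CPM, and the KO M samples had 278.5, 333 and 348 CPM and the WT M samples 366, 411 and 426 CPM. In both letters all KO samples lay below all WT samples, by a narrow margin in F. Ldhb fell by 0.22 on average (SE 0.060, edgeR adjusted p = 0.0208), a call lost without KO M sample L310 or WT M sample L285 or L300 (adjusted p up to 0.0936) and with the outside share as a term, where Ldhb was -0.15 (0.335). In KO M, Ldhb was higher with CP2, at 355, 376, 381, 411 and 427 CPM, than with vehicle (0.29, SE 0.086, edgeR adjusted p = 0.0429), a call kept in 1 of 8 fits that left out a sample, that without KO CP2 M sample L298. Without L266 and L291 it was 0.25 (SE 0.096, edgeR adjusted p = 0.185), and it was lost in 5 of the 8 other fits, down to 0.15 with the outside share (edgeR adjusted p = 0.721). In KO against WT with CP2 the Ldhb estimate was -0.01 (SE 0.052, edgeR adjusted p = 0.949).

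The ratio of Ldha to Ldhb within a sample does not depend on library size. In vehicle F its log2 was -1.20, -1.19, -1.14, -1.07 and -0.94 in KO and -0.86, -0.83, -0.82, -0.75 and -0.75 in WT. The mean was lower in KO by test, with a difference of -0.31, and 5 of 5 KO samples lay below all WT samples (two-sided exact permutation p = 0.00794, as low as groups of 5 can reach, with 0.0317 as the value adjusted over 8 comparisons). In M with CP2 the KO values were -0.999, -0.96, -0.93, -0.89 and -0.75 and the WT values -0.74, -0.73, -0.70, -0.69 and -0.50. There the difference was -0.23, again with 5 of 5 KO samples below all WT samples (exact permutation p = 0.00794, 0.0317 after adjustment). Leaving out any 1 sample left the groups of either comparison fully apart. Without 1 WT sample the exact permutation p was 0.0159, 2 of the 126 arrangements, and 0.0635 after adjustment, while without 1 KO sample it was 1 of the 126. The ratio was not tested with the outside share as a term. Per percentage point of that share, the log2 coefficient was -0.065 for Ldha and -0.028 for Ldhb. Of these only that of Ldha was called. For vehicle F the share reached 11.7% in KO and 7.04% in WT. For M with CP2 it reached 9.06% in KO and 13.2% in WT.

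The other Ldha to Ldhb comparisons did not pass. In F with CP2 the KO mean was lower by 0.20 in size (exact permutation p = 0.278), and the KO samples ran from -1.29 in L201 to -0.38 in L234. In M with vehicle, where 3 against 3 samples cannot go below p = 0.1, the KO values were -0.90, -0.83 and -0.24 and the WT values -0.86, -0.82 and -0.78 (difference 0.17, exact permutation p = 0.9). In WT M the ratio was higher with CP2 in 5 of 5 samples (difference 0.15, exact permutation p = 0.0357, 0.0952 after adjustment). Ldhd was not called in any comparison.

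Among carriers of lactate and pyruvate, Slc16a1 rose and Slc16a7 fell in KO, each in part of the comparisons. Slc16a1 encodes MCT1, found on vessels and glia, and was higher in KO than WT with CP2. For M, the KO samples had 47.3, 60.3, 60.4, 61.8 and 71.1 CPM and the WT samples 42.0, 42.4, 45.6, 47.2 and 53.8 CPM. Among F samples, KO had 49.7, 50.6, 55.6, 64.0 and 74.6 CPM and the WT samples 39.1, 49.2, 50.7, 52.3 and 53.2 CPM. The groups overlapped in both letters. The log2 fold change was 0.33 on average (SE 0.082, edgeR adjusted p = 0.00719), called in 20 of 20 fits that left out a sample, and 0.38 in M (SE 0.12, edgeR adjusted p = 0.03), called in 4 of 10. The M call was lost without KO CP2 M sample L266, L292 or L299 or WT CP2 M sample L262, L263 or L289 (adjusted p up to 0.105). It was also lost without a filter on low counts (adjusted p = 0.0511), with the title number (0.0684), and with the outside share as a term (0.24, adjusted p = 0.422).

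In F the highest Slc16a1 value, 74.6 CPM, belonged to L233, which also held the most endothelial marker RNA of all samples, 384 CPM. Over the KO CP2 M samples endothelial markers summed to between 253 and 302.7 CPM and over WT CP2 M to between 190 and 271 CPM. Of the 8 endothelial markers 7 were estimated higher in KO with CP2 on average and 0 were called, and in M Abcb1a was called (0.51, SE 0.15, edgeR adjusted p = 0.0255). Their part in the Slc16a1 difference was not tested.

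Slc16a7 encodes MCT2, the carrier of neurons. In vehicle F the KO samples were spread over 15.9, 24.3, 27.6, 28.5 and 41.6 CPM, and the WT samples lay close together at 40.6, 42.8, 42.8, 43.7 and 44.1 CPM. Only the highest KO sample, L283, reached the WT range. Slc16a7 fell by 0.63 in F (SE 0.16, edgeR adjusted p = 0.0175), a call lost without KO F sample L246 or L281 (adjusted p up to 0.0544), with only the compared groups in the fit (0.0957), and with the outside share as a term, where it was -0.43 (0.245). In M the KO samples had 40.3, 45.7 and 46.7 CPM and the WT samples 35.0, 36.8 and 49.5 CPM (0.13, SE 0.20, edgeR adjusted p = 0.886). The F effect minus the M effect was -0.76 (SE 0.26, edgeR adjusted p = 0.341). With CP2 the KO F samples, at 24.7, 32.01, 38.3, 40.2 and 40.6 CPM, all lay below the WT F samples, at 42.5, 43.4, 47.9, 50.4 and 50.8 CPM, and the difference did not pass (-0.42, SE 0.16, edgeR adjusted p = 0.164). On average Slc16a7 with CP2 was not called in the fit of all groups, but it was with DESeq2 (-0.30, adjusted p = 0.0266), with only the compared groups (-0.30, edgeR adjusted p = 0.0233) and with the outside share as a term (-0.40, edgeR adjusted p = 0.012).

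Bsg encodes basigin, the chaperone that brings MCT1 and MCT4 to the membrane. In KO M it had 388, 388, 469, 474 and 477 CPM with CP2 and 317, 329 and 380 CPM with vehicle, without overlap. In KO F it had 396, 400, 453, 461 and 483 CPM with CP2 and 375, 379, 393, 429 and 439 CPM with vehicle, with overlap. Bsg rose by 0.36 in M (SE 0.093, edgeR adjusted p = 0.0168) and by 0.24 on average (SE 0.061, edgeR adjusted p = 0.0182). The average was lost without KO vehicle M sample L319 or L322, and the M call was kept in 3 of 8 fits, lost without KO CP2 M sample L266, L292 or L299 or those same vehicle samples. The average was also lost with only the compared groups in the fit (0.24, adjusted p = 0.0598), with the title number (0.11, adjusted p = 0.604) and with the outside share (0.21, adjusted p = 0.478). The M call was lost with the title number (0.27, adjusted p = 0.113) and with the outside share (0.31, adjusted p = 0.407). The pyruvate carrier subunits Mpc1 (65.7 to 97.3 CPM) and Mpc2 (51.6 to 81.1 CPM) and MCT4, Slc16a3 (2.06 to 6.05 CPM), were not called with edgeR on all samples. Mpc2 without L201 and L233 was called higher with CP2 than with vehicle in KO on average (0.23, edgeR adjusted p = 0.0469).

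Other cell markers moved with the CP2 comparison in KO. Of 8 oligodendrocyte markers 5 were called higher on average, among them Mbp (0.39, SE 0.10, edgeR adjusted p = 0.0227), and of 8 microglia markers 4 were, where 2.08% of all genes rose. In M the oligodendrocyte markers summed to between 8491 and 15768 CPM with CP2 and between 8124 and 9574 CPM with vehicle. In KO against WT with CP2, 4 of 8 microglia markers and 4 of 5 cerebellar markers were called higher on average, where 5.54% of all genes rose. The cerebellar markers summed to 529 CPM in KO CP2 F sample L201 and 140 CPM in L233, and to at most 83.4 CPM in any other sample. In KO against WT with vehicle, 4 of 5 red cell markers were called lower, where 3.8% of all genes fell on average. They summed to between 38.6 and 129 CPM in KO and between 85.1 and 647 CPM in WT. Their part in the members' differences was not tested.

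The share of reads outside genes also moved with these groups. As a term in the fit its own coefficient was called for 6 of the 32 genes, beside 6.51% of all genes: Slc2a1 and Pfkfb2 were higher at a higher share, and Pgk1, Pgam1, Eno1 and Ldha were lower. For Ldha it was -0.065 on the log2 scale per percentage point (SE 0.015, edgeR adjusted p = 0.00751), and for Pfkfb2 it was 0.069 (SE 0.016, edgeR adjusted p = 0.00609). Over the 13 comparisons without the F minus M differences, 30 pairs of a gene and a comparison were called. With this term 11 of the 30 calls stayed, and 0 of the 30 changed sign. In KO against WT with vehicle the average kept Slc2a3, and F kept Slc2a4 at 1.20 (SE 0.27, edgeR adjusted p = 0.0223). Of the 19 calls lost, 8 kept at least 80% of their log2 fold change, 5 kept 50% to 80% and 6 kept less. Slc2a4, Pgam2 and Pfkl with vehicle, Pgam2 with CP2 in M and Bsg and Pfkp with CP2 in KO were among the 8, and the 6 were those of Ldha and Pgk1 with vehicle and of Pfkfb2.

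With the same term, all 6 average calls of KO against WT with CP2 stayed, with Slc2a4 at 0.97 (SE 0.17, edgeR adjusted p = 0.000211) and Ldha at -0.31 (SE 0.061, edgeR adjusted p = 0.000554). In M, Slc2a4, Pfkp and Pfkfb3 stayed and Pgam2 and Slc16a1 were lost. For M with CP2 the share was 5.18% to 9.06% in KO and 9.05% to 13.2% in WT. There genotype and the share can hardly be told apart. For F with CP2 it was 5.83% to 10.97% in KO and 5.45% to 7.18% in WT. The average thus joins letters in which the share ran opposite ways. For CP2 against vehicle in KO 0 of the 32 and 0 of all genes were called, on average and in M. An unadjusted p under 0.05 was held by 3 of the 32 on average, beside 1931 of all genes, and by 7 in M, beside 2297. In KO M the share did not overlap between treatments, so there the share and CP2 cannot be told apart.

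**Figure D5:**
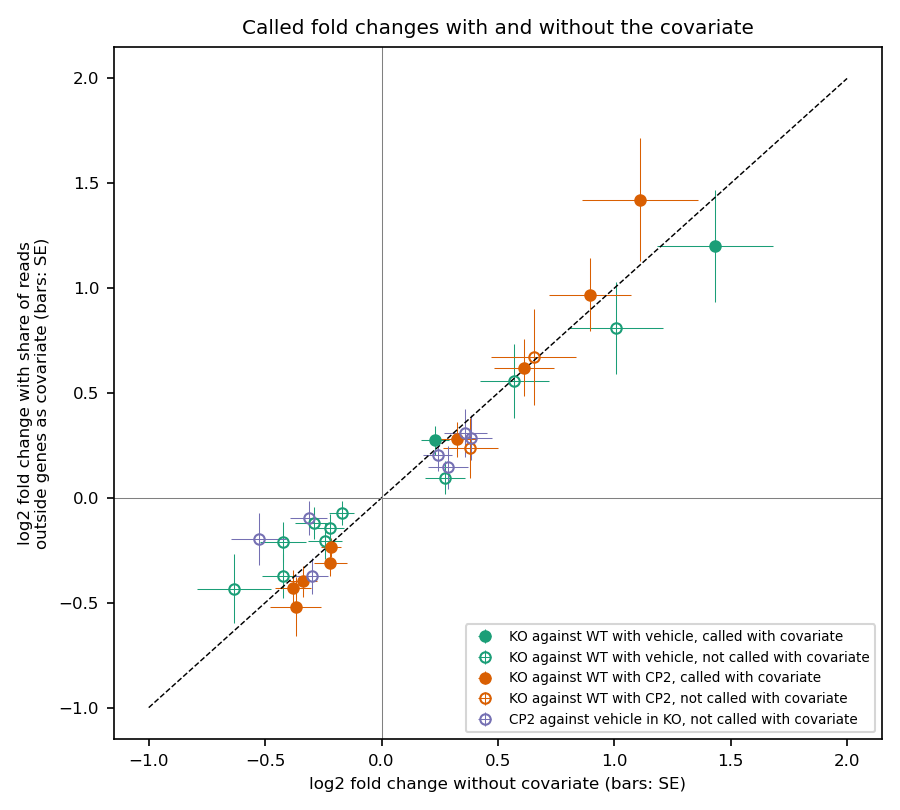
Log2 fold change of the 30 calls without (x axis) and with (y axis) that share as a term of the fit, with bars of 1 SE, a dashed line of equality and filled points for the 11 calls that stayed. Of the 11 filled points 9 are of KO against WT with CP2, and every point of CP2 against vehicle in KO is open.

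Related genes outside the 32 were read from 4 lists, and their counts in vehicle stand beside 6.67% of all genes called on average (2.87% rose and 3.8% fell). Among minor isoforms and other carriers, 22 of 24 were tested, and in vehicle the urate and fructose carrier Slc2a9 rose (0.88, SE 0.25, edgeR adjusted p = 0.0282) and the hexokinase Hk3 fell by 0.92 (SE 0.24, edgeR adjusted p = 0.0166), on average. Among 26 tested genes of glycogen, pentose phosphate, gluconeogenic and pyruvate dehydrogenase kinase branches, 1 rose and 4 fell. They were Pgm2 (0.49, SE 0.089, edgeR adjusted p = 0.000708) and, lower, Rpe (-0.41), Ugp2 (-0.26), Pygm (-0.37). Gys1 also fell, by 0.31, and was chosen for naming after its values were seen. Of 10 genes of the NADH shuttles Gpd2, the mitochondrial glycerol phosphate dehydrogenase, fell by 0.20 (SE 0.053, edgeR adjusted p = 0.0171). Of 14 regulators Esrra and Tigar fell, and 0 rose.

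With CP2, 3 of the 10 shuttle genes rose in KO against WT on average and 2 fell, where 5.54% of all genes rose and 6.07% fell. Mdh2, the mitochondrial malate dehydrogenase, rose by 0.14 and the oxoglutarate carrier Slc25a11 by 0.14 (SE 0.040, edgeR adjusted p = 0.0164), while Gpd1 fell by 0.20 (SE 0.057, edgeR adjusted p = 0.0169) and Gpd2 by 0.15. Of the 14 regulators Txnip, a glucose-responsive inhibitor of glucose uptake, rose by 0.52 (SE 0.13, edgeR adjusted p = 0.00854) and Hif1a by 0.15 (SE 0.045, edgeR adjusted p = 0.0298), while Mlxip fell by 0.23 and Esrra by 0.23. Slc25a12, which rose by 0.12, and Arnt, which fell by 0.23, were the remaining calls of these lists and were chosen for naming after their values were seen. Pdk1, which restrains pyruvate entry to mitochondria, rose by 0.24 (SE 0.062, edgeR adjusted p = 0.00826) in a branch list with 3 higher and 0 lower. Of the minor isoforms Bpgm and Slc2a9 rose and Gapdhs fell. CP2 against vehicle in KO called Bpgm (0.23) and Ugp2 (0.24) higher on average, where 2.08% of all genes rose.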

How the data were processed

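Brain RNA of 36 samples was sequenced. The deposited table holds whole-number read counts per gene, not normalized, and per the submitters' processing notes it came from STAR, HTSeq and GRCm39. Their versions and strand setting are not given in the sources used here. The 5 summary rows of the counter stayed out of library sizes. Gene IDs were matched to symbols for 52073 of 56980 rows. The 8 groups were fitted together with edgeR 4.0.16 in R 4.3.3 (TMM scaling, filterByExpr, robust quasi-likelihood), and p-values were adjusted by Benjamini-Hochberg over 25601 genes within each comparison, with calls at 0.05. Standard errors were taken from the fold change and its F statistic. CPM values use TMM-scaled library sizes. The log2 ratio of Ldha to Ldhb was compared with exact two-sided permutation tests. The method was also run on simulated counts without differences in region, title letter or outside share. The outcome of that run is not given, and no result here rests on it. Alternatives were DESeq2 1.42.0, other size factors, no filter, other samples in the fit, covariates and left-out samples.

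The members and lists were chosen with earlier results of these data known. Named in full were members called in any of 13 comparisons and Slc2a1, Slc2a3, Hk1, Hk2, Pfkfb3, Ldha, Ldhb, Slc16a1 and Slc16a7. From each related list up to 4 genes with the smallest adjusted p and a mean of at least 1 CPM were named. Leaving out L201 with L233 or L266 with L291, and single samples for F minus M differences, was chosen after seeing the data. Lengths are from GENCODE M21 on GRCm38, and promoters from RefSeq on GRCm38.p6.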

Additional observations from a re-analysis of the deposited data

Results flagged for a closer look

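In 5 of 108 groups of values examined, 1 sample lay far from the others by Dixon's criterion, and chance gives about 1 in 20 groups. Slc2a4 stood at 6.25 CPM in KO CP2 F sample L201, with the others between 2.52 and 3.14 CPM. Hk1 stood at 295.9 CPM in WT CP2 M sample L262, with the others between 320.0 and 329 CPM. Slc16a1 stood at 39.1 CPM in WT CP2 F sample L228, with the others between 49.2 and 53.2 CPM. Slc16a7 stood at 39.0 CPM in WT CP2 M sample L259, with the others between 47.8 and 50.6 CPM. The log2 ratio of Ldha to Ldhb stood at -0.50 in WT CP2 M sample L263, with the others between -0.74 and -0.69.

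The effect of CP2 on Pfkp in KO differed between the title letters by test, with an F effect minus M effect of 0.43 (SE 0.092, edgeR adjusted p = 0.0273). In KO the share of reads outside genes overlapped between treatments in F but not in M.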

How the results depend on the processing

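Of the 30 calls, DESeq2 and leaving out the gene with the largest share of counts kept 30, other size factors (RLE) 28, a hippocampal CA marker score 28, no filter 26, fitting only the compared groups 24, the title number as a covariate 22 and the share of reads outside genes 11, with 0 sign changes in these settings. Without L201 and L233, 7 of 8 calls stayed, and without L266 and L291, 12 of 18.

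Counts of called members moved as follows. Percentages here are the share of all tested genes called in the same fit. The share of reads outside genes left, for KO against WT with vehicle, 1 on average (8 without it, 1.14%) and 1 in F (4 without it, 0.609%). It left 0 for CP2 in KO on average and in M (0% in each). DESeq2 called 2 in KO against WT with vehicle in M (2.22%), 10 with CP2 on average (14.4%) and 2 with CP2 in F (3.54%). It called 4 for CP2 in KO on average (6.17%) and 2 for the interaction (2.27%). Fitting only the compared groups gave 1 in KO against WT with vehicle in M (1.89%), 9 with CP2 in M (15.7%) and 0 for CP2 in KO on average (0.621%). The title number gave 1 with CP2 in F (1.14%), and 0 on average (0.199%) and 3 in M (2.65%) for CP2 in KO. The hippocampal CA score gave 1 for CP2 in KO F (1.14%) and 2 for its F minus M difference (share of all genes not given here). Without L201 and L233 CP2 in KO gave 5 on average (6.62%) and 1 in F (0.105%), and the interaction 1 (2.54%). Without L266 and L291 CP2 in KO gave 1 on average (2.05%), 2 in M (1.45%) and 0 for F minus M. The cause was not tested.

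Leaving out single samples gave, for KO against WT with vehicle, 2 to 9 calls on average, 3 to 5 in F and 0 in M. With CP2 it gave 5 to 8 on average, 0 to 1 in F and 2 to 7 in M. For CP2 in KO it gave 0 to 6 on average, 0 to 1 in F and 1 to 6 in M, for the interaction 0 to 1, and for CP2 in WT 0. The F minus M differences had 0 to 1 in KO against WT with vehicle and with CP2, 0 to 2 for CP2 in KO and 0 for CP2 in WT. The share of all tested genes called in these fits is not given here. These counts therefore cannot be told apart from a shift over all genes. The Ldha to Ldhb difference ran from -0.35 to -0.29 in vehicle F and from -0.27 to -0.19 in M with CP2, with the groups fully apart in each. Without 1 WT sample the adjusted p was 0.0635, from 2 of 126 arrangements.

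Over all genes, the average of KO against WT with vehicle called 6.67%, and 1.14% with the share of reads outside genes. CP2 in KO on average called 1002 genes, and 0 with that share, 51 with the title number, 159 with only the compared groups, 1580 with DESeq2, 1695 without L201 and L233 and 526 without L266 and L291. No paired analysis was possible because the title numbers are not shared between groups. Groups of 3 samples limit the M comparisons with vehicle.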
